A study of Mus musculus with 8 samples.

Results

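The 9 core genes of the Hedgehog pathway, Shh, Ihh, Dhh, Ptch1, Smo, Hhip, Gli1, Gli2 and Gli3, were examined for the histone mark H3K27-me3 in fasted mouse liver. They were chosen by gene name among 21851 protein-coding genes, and every H3K27-me3 region over the gene or within 50 kb of a start site was taken. This gave 87 of the 59267 regions found after downregulation of JMJD3, and 41 of the 34586 regions found in control liver. JMJD3, encoded by Kdm6b, is a demethylase that acts on lysine 27 of histone H3. Male JMJD3-floxed C57BL/6 mice were given AAV-TBG-Cre or AAV-GFP at 8 weeks of age and, 12 weeks later, were fasted for 16 h, so that both groups carried the floxed allele and a virus. AAV-TBG-Cre expresses the Cre recombinase from a hepatocyte promoter, so the other cells of the liver were not targeted. Each virus group had 2 H3K27-me3 libraries and 2 input libraries, made from whole-liver chromatin, which the labels call primary liver cells.

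Each virus group was represented by 1 list of regions made from both of its libraries. The files used here hold no value per mouse, so the groups are described side by side and no difference between them was tested. Read counts were not in the files used here, so the depth is unknown. A region carries a fold, which is the enrichment over input at its peak, and a q-value, which refers to enrichment over input within its own group. Folds were not compared between the lists.

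Hedgehog ligands are secreted proteins that bind the receptor Patched on a neighbouring cell. Binding relieves the inhibition of Smoothened by Patched, and Smoothened then acts through the primary cilium to turn the GLI transcription factors into activators. H3K27-me3 is laid down by Polycomb repressive complexes, often as broad domains at the CpG-rich promoters of developmental genes that are silent in a tissue. In adult liver, Hedgehog signalling is known mainly from bile duct cells, stellate cells and repair after injury.

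All 9 genes had a region within 15 kb of a start site in the AAV-Cre list, against 41.6% of all protein-coding genes. In the AAV-GFP list 8 of 9 had one, against 28% of all genes. The exception was Ihh, which was the only member marked in AAV-Cre alone, where 14.8% of all genes were of this kind. No member was marked in AAV-GFP alone, against 1.21% of all genes. Start sites here are those of the basic protein-coding transcripts. Such a site lay inside a region for 8 of 9 members in AAV-Cre, all but Ptch1, where 19.6% of all genes had one. In AAV-GFP this held for 5 of 9, namely Shh, Dhh, Smo, Gli2 and Gli3, where 11% of all genes had one. Outside this set, the starts of the protein-coding transcripts Ptch1-205 and Gli1-202 lay inside a region in both lists. Within 1 kb of a start site, 8 members were marked in AAV-Cre and 6 in AAV-GFP, against 24% and 16.6% of all genes.

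**Figure D1:**
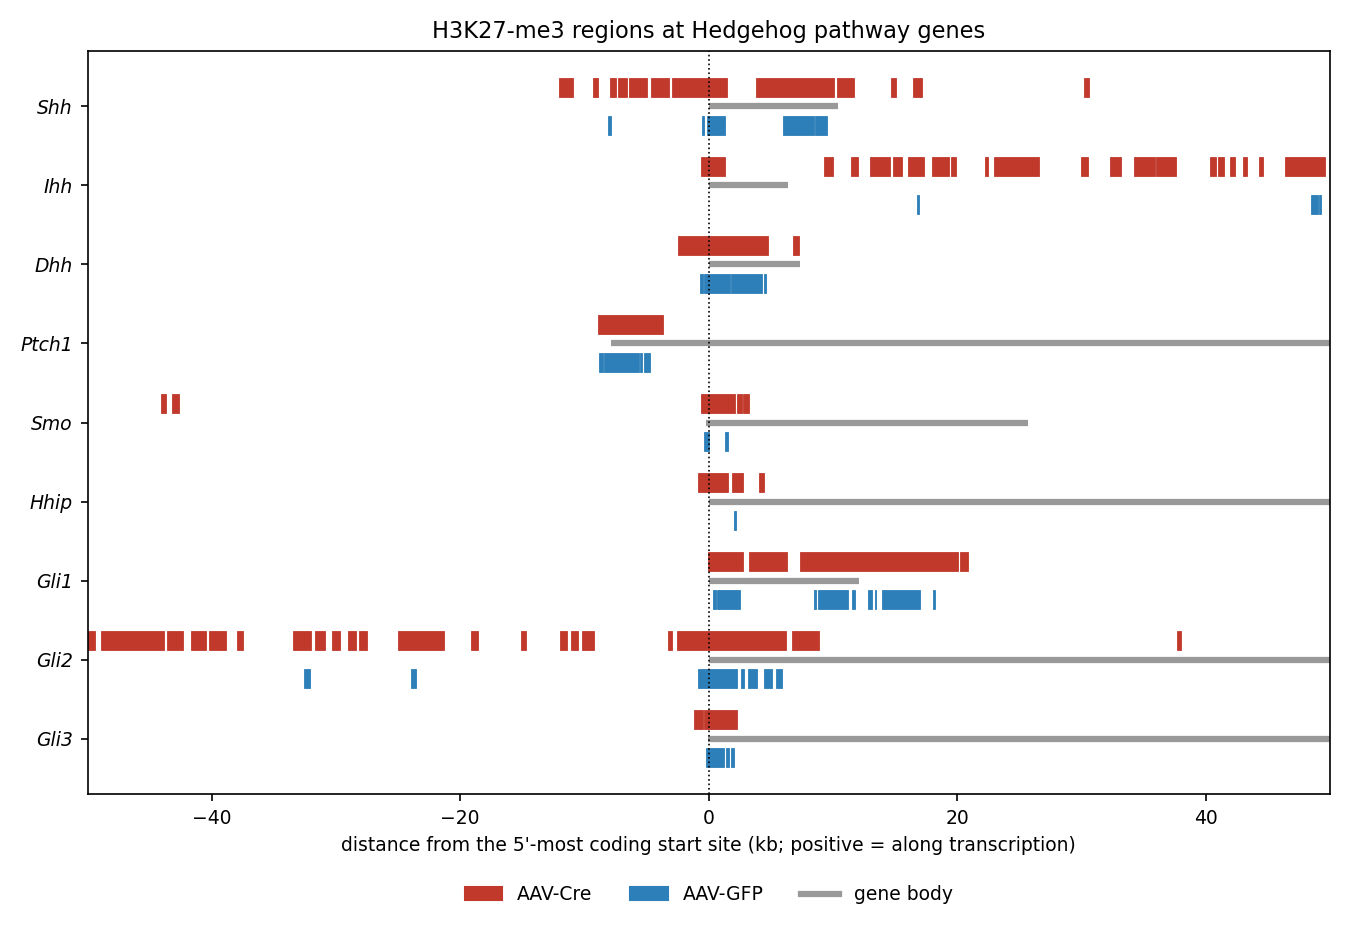
Position of H3K27-me3 regions around the 9 genes, in kb from the most 5′ start site of the basic protein-coding transcripts, with AAV-Cre regions in red above the gene body in grey and AAV-GFP regions in blue below it. Regions beyond 50 kb, which occur inside Gli2 and Gli3, are not drawn. Of the 9 dotted start-site positions, 8 lie inside a red region and 5 inside a blue one.

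The promoters of Ihh, Dhh and Ptch1, each the 250 bases before an annotated start site, were read from GRCm38 to show what sequence lay under the mark and what lay outside it. Each is written on the strand of the gene, 5′ to 3′, with every CpG in capitals. The Ihh promoter is at chr1:74951673-74951922, the Dhh promoter at chr15:98898541-98898790, the Ptch1 promoter of transcript Ptch1-201 at chr13:63565736-63565985 and the promoter of transcript Ptch1-205 at chr13:63573599-63573848. All are on the minus strand and overlap 0 annotated exons.
Ihh: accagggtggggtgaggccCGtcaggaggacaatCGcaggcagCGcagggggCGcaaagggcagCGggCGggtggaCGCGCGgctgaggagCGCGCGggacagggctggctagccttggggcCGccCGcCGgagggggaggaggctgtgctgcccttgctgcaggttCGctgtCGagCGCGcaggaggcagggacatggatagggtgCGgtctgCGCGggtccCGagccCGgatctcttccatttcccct
Dhh: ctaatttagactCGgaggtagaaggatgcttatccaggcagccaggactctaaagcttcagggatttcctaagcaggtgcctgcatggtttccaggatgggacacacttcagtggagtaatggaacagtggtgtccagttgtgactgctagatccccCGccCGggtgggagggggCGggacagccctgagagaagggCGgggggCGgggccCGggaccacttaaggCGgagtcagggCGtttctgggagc
Ptch1-201: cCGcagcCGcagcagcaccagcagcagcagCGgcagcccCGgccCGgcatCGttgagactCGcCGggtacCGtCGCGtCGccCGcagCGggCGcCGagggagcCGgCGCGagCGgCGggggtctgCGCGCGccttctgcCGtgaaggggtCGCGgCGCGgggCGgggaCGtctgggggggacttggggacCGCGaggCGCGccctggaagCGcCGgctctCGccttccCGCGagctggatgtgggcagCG
Ptch1-205: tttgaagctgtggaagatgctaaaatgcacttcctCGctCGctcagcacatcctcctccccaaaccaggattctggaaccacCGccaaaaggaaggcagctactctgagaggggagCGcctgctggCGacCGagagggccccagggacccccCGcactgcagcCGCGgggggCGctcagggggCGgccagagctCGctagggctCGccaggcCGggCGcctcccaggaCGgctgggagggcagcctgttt
The Ihh promoter held 24 CpG and lay wholly inside a region in AAV-Cre and outside any in AAV-GFP. The Dhh promoter held 9 CpG and lay wholly inside a region in both lists. The Ptch1-201 promoter was the richest in CpG of these, with 41, and had 0 bases covered in either list, whereas the Ptch1-205 promoter, with 16 CpG, was covered over all 250 bases in both.

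Among the ligands, Shh encodes the ligand that patterns limb and neural tube. Shh (ENSMUSG00000002633.4) lies on chromosome 5 at 28456815-28467256, minus strand. In AAV-Cre, 12 regions covered 19273 bp of its locus, and in AAV-GFP 5 regions covered 5231 bp. The AAV-Cre region over its start site was 4385 bp wide (28465787-28470171) with a fold of 9.27 and q of 5.5e-39. A wider region of 6336 bp (28457147-28463482) lay over exon and intron sequence of the gene, with a fold of 8.67 and q of 6.5e-49. With a further region at the 3′ end, AAV-Cre regions covered 75.4% of the Shh gene body. In AAV-GFP the start site lay in a region of 1474 bp (fold of 4.55, q of 1.9e-10), while the widest region was intronic with 2485 bp, and 45.2% of the gene body was covered. Upstream of Shh, AAV-Cre had 6 regions over 5682 bp, the farthest beginning 10880 bp from the start site, of which 1 overlapped an AAV-GFP region. The nearest other protein-coding start site was that of Rbm33, at least 119449 bp away from each of these regions. No Shh region was thus closer to another protein-coding gene. The start-site region and the 6 upstream regions of AAV-Cre also overlapped 9530036O11Rik and Gm26894, annotated genes outside the protein-coding set. Distances to their start sites were not read.

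Ihh encodes the ligand of cartilage and gut epithelium. Ihh (ENSMUSG00000006538.12) lies on chromosome 1 at 74945315-74951672, minus strand. Its start site lay in an AAV-Cre region of 1950 bp (74950373-74952322) with a fold of 5.49 and q of 1.1e-15, and 7.55% of the regions in that list had a smaller p-value. The AAV-GFP list had no region over Ihh or within 15 kb of its start site, and the nearest, of 121 bp, lay 16783 bp downstream (74934769-74934889, fold of 2.95, q of 0.0099). The locus counted 22459 covered bp in AAV-Cre and 803 bp in AAV-GFP, but 19 of the 20 AAV-Cre regions and all 3 AAV-GFP regions lay downstream of the gene and closer to the start site of Cfap65 or Cryba2. These 19 regions summed to 20509 bp. Once merged across gaps of up to 5 kb they belonged to a domain of 100548 bp that ended 9265 bp from the Ihh start site, while the region over the start site remained apart from it. Within 15 kb of the start site Ihh had 5031 covered bp in AAV-Cre and 0 in AAV-GFP.

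Dhh encodes the ligand of Schwann cells and testis. Dhh (ENSMUSG00000023000.5) lies on chromosome 15 at 98891152-98898540, minus strand. A single AAV-Cre region of 7273 bp (98893757-98901029) spanned both of its start sites with a fold of 14.8 and q of 5.9e-73, and 0.162% of the regions in the list had a smaller p-value. Inside the same stretch AAV-GFP had 4 regions of 137, 2501, 2050 and 220 bp, with folds from 2.37 to 5.86. All 4908 AAV-GFP bp thus lay within the AAV-Cre region, and 58.6% of the gene body was covered in AAV-GFP against 71.6% in AAV-Cre. The difference in covered length at Dhh, 7782 against 4908 bp, was 1.59-fold and was smaller only at Ptch1.

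Ptch1 encodes the receptor that binds the ligands and is itself switched on by GLI factors. Ptch1 (ENSMUSG00000021466.12) lies on chromosome 13 at 63508328-63573598, minus strand. Its only AAV-Cre region was 5248 bp wide (63569394-63574641) with a fold of 13 and q of 5.5e-75, and 0.137% of the regions in the list had a smaller p-value. AAV-GFP had 4 regions of 422, 123, 2812 and 281 bp, all inside it, of which the widest (63571354-63574165) had a fold of 8.16 and q of 6.6e-34 and was exceeded by 0.133% of its list. These regions lay at the 5′ end of the annotated gene, over the start sites of Ptch1-205 at 63573598 and Ptch1-204 at 63573460, in both lists. The start sites of the transcripts in the basic set, at 63565735 and 63564535, lay outside, 3659 bp from the nearest AAV-Cre and 4753 bp from the nearest AAV-GFP region. The mark at Ptch1 therefore stood at the upstream first exons and was not called at the CpG-rich promoter printed above. In covered length, 5248 against 3638 bp, Ptch1 differed least between the lists, with a ratio of 1.44.

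Smo encodes Smoothened, the transmembrane protein held inactive by Patched. Smo (ENSMUSG00000001761.7) lies on chromosome 6 at 29735503-29761365, plus strand. In AAV-Cre its start site lay in a region of 2684 bp (29735098-29737781) with a fold of 3.52 and q of 8.6e-11, the lowest fold of any member's start-site region in that list. In AAV-GFP a region of 372 bp covered the start site with a fold of 2.69 and q of 0.0033, and another of 229 bp lay 1293 bp inside the gene. Both fell within the wide AAV-Cre region. The locus had 4567 covered bp in AAV-Cre and 601 bp in AAV-GFP, although 2 of the 5 AAV-Cre regions, of 412 and 571 bp, lay at least 42665 bp upstream and closer to Tspan33.

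Hhip encodes a membrane protein that binds the ligands and so dampens the pathway. Hhip (ENSMUSG00000064325.4) lies on chromosome 8 at 79965851-80058006, minus strand. The AAV-Cre list had 3 regions at its 5′ end, of which that over the start site was 2427 bp wide (80056451-80058877) with a fold of 4.39 and q of 3.6e-09. The AAV-GFP list had a single region of 131 bp at chr8:80055820-80055950, 2056 bp inside the gene in an intron, with a fold of 2.88 and q of 0.014. It is printed on the strand of the gene with CpG in capitals, since it is the whole of the mark called at Hhip in control liver.
Hhip AAV-GFP region: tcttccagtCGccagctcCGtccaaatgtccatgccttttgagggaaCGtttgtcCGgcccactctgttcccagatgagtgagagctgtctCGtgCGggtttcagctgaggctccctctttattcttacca
It held 6 CpG and lay inside an AAV-Cre region of 918 bp. Hhip thus had 3724 covered bp in AAV-Cre and 131 bp in AAV-GFP, the highest ratio among the members at 28.4, and that ratio rests on 1 short region. At a q-value of 0.01 or lower, or a width of at least 300 bp, Hhip had 0 covered bp in AAV-GFP.

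**Figure D2:**
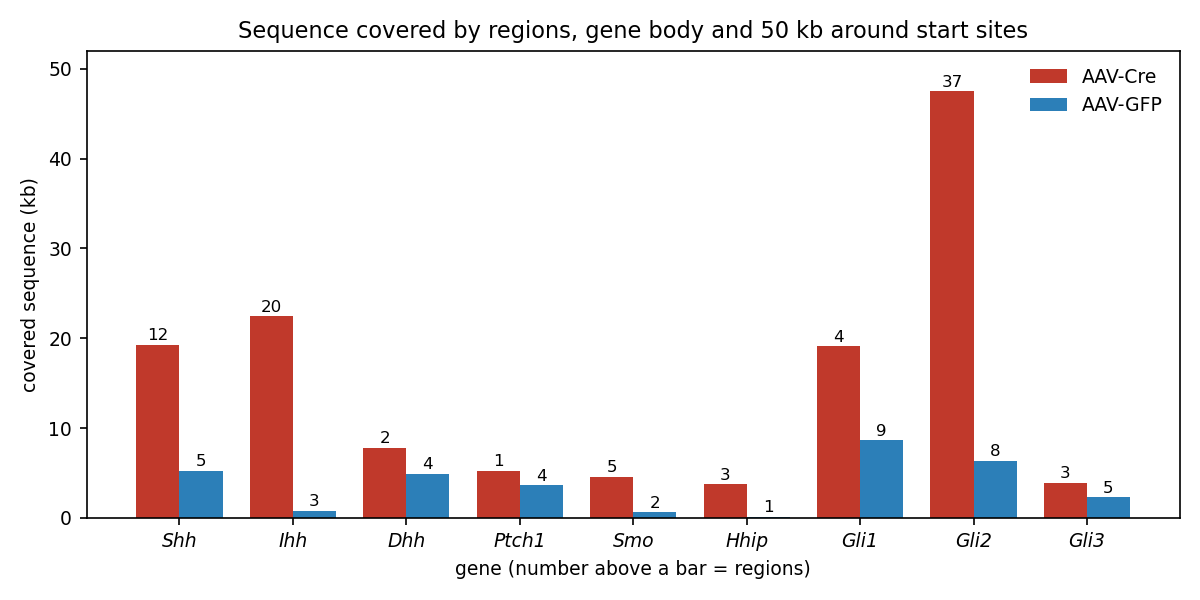
Length of sequence covered by H3K27-me3 regions, in kb, over the gene body and 50 kb around the start sites of each gene, with AAV-Cre in red and AAV-GFP in blue and the number of regions above each bar. The red bar is the higher in all 9 genes, from 1.44 times the blue bar at Ptch1 to 28.4 times at Hhip. There is 1 list per group, so no bar has an error.

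Gli1 encodes a GLI activator whose own transcription is a common readout of the pathway. Gli1 (ENSMUSG00000025407.7) lies on chromosome 10 at 127329882-127341974, minus strand. The AAV-Cre region over its start site was 2779 bp wide (127339243-127342021), with a fold of 15.2 and q of 1.5e-76, the highest fold of the 87 regions. In AAV-GFP the nearest region began 322 bp inside the gene, with 252 bp, a fold of 3.46 and q of 3e-07. Beside it lay a region of 1860 bp with a fold of 5.5 and q of 1.6e-19. Both fell inside the AAV-Cre region. The start of another protein-coding transcript, Gli1-202 at 127339959, lay inside a region in both lists. The adjoining AAV-Cre region of 3026 bp (127335678-127338703) overlapped no AAV-GFP region. The 3′ part of Gli1 lay in the widest region of the set, 12680 bp in AAV-Cre (127321916-127334595, fold of 10.0, q of 2.2e-39). That region also covered the start site of Arhgap9 and held 7 AAV-GFP regions. Of the 9 AAV-GFP regions of the locus, 6 were closer to Arhgap9 than to Gli1, among them 1 of 3116 bp with a fold of 1.63 and q of 0.89. The gene body of Gli1 was covered over 86.6% in AAV-Cre and 40.6% in AAV-GFP.

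Gli2 encodes the main GLI activator. Gli2 (ENSMUSG00000048402.14) lies on chromosome 1 at 118834132-119053619, minus strand, and had the most covered sequence of the 9 genes in AAV-Cre, with 37 regions over 47500 bp. In AAV-GFP it had 8 regions over 6354 bp, a ratio of 7.48. At the start site itself the lists differed less. The AAV-Cre region there was 8763 bp wide (119047419-119056181) with a fold of 9.85 and q of 5.2e-43, and it held 5 AAV-GFP regions that summed to 5383 bp. The widest of these, of 3145 bp, covered the start site with a fold of 3.96 and q of 6e-12. The remaining AAV-Cre sequence came mostly from 2 stretches of weaker regions. Upstream, 18 regions with 21788 bp lay at 2960 to 49436 bp from the start site, with folds from 2.51 to 4.86, and 2 of them overlapped an AAV-GFP region. Merged across gaps of up to 5 kb, those from 119062812 on belonged to a domain of 227821 bp with 82 regions that ran to 119290632, past the 50 kb read here. Inside the gene, 15 intronic regions with 14552 bp lay at 135315 to 179368 bp from the start site, with folds from 2.38 to 6.0, and 1 of them overlapped an AAV-GFP region. No other protein-coding start site was closer to any of the 37 regions, and the nearest ones belonged to Inhbb and Tfcp2l1.

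Gli3 encodes a GLI factor that acts chiefly as a repressor when signalling is off. Gli3 (ENSMUSG00000021318.15) lies on chromosome 13 at 15463235-15730026, plus strand. Its start sites lay in an AAV-Cre region of 2664 bp (15462893-15465556) with a fold of 6.63 and q of 2e-25. In AAV-GFP a region of 1470 bp covered them with a fold of 3.99 and q of 6.9e-09, followed by regions of 311 and 215 bp within the same stretch. The gene had the only AAV-GFP regions of the 41 that overlapped no AAV-Cre region, and these were 151 and 158 bp wide, lay 189115 and 255929 bp inside the gene and had q-values of 0.43 and 0.18. Over the whole locus 3899 bp were covered in AAV-Cre and 2305 bp in AAV-GFP, a ratio of 1.69, though Gli3 is the longest of the 9 genes with 266792 bp.

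The 9 genes are grouped here by the ratio of covered length between the lists. At Dhh, Ptch1, Gli1 and Gli3 the covered length in AAV-Cre was at most 2.22 times that in AAV-GFP. The AAV-GFP regions nearest the start site sat inside wider AAV-Cre ones at these genes, and equally at Shh, Smo, Gli2 and Hhip. The ratio at Gli1 rests on AAV-GFP regions of high q-value, and with regions at a q-value of 0.05 or lower it was 4.11 (19126 against 4652 bp), within the range of the next genes. At Shh, Smo and Gli2 the covered length differed by 3.68 to 7.6 times. The start site was covered in both lists there, as it was at Dhh and Gli3. At Ihh and Hhip, where the ratio was 28 and 28.4, the start site was covered in AAV-Cre only, as was the basic start site of Gli1. The ratio at Ihh came mostly from downstream regions closer to Cfap65 or Cryba2, with 20509 bp in AAV-Cre and 803 bp in AAV-GFP. That at Hhip rests on 1 AAV-GFP region of 131 bp. Over all 9 loci, 133578 bp (10.0% of the sequence) were covered in AAV-Cre and 32599 bp (2.44%) in AAV-GFP, a ratio of 4.1, where the ratio over the whole lists was 4.93. With all regions taken, the ratio at these genes together was thus below that of the whole lists, though it was above 4.93 at Ihh, Hhip, Smo and Gli2 singly. At a q-value of 0.05 or lower the lengths were 129948 and 26649 bp, and no ratio over the whole lists was read at that setting. Of all regions in the whole lists, 88.6% in AAV-Cre and 46.8% in AAV-GFP met it, and the ratio of 4.93 counts the others too. What part the wider calling of the AAV-Cre list had in each member was not tested. With the 34586 peaks of smallest p-value taken from each list, the covered length was 114417 bp in AAV-Cre and 32599 bp in AAV-GFP. That number is the whole AAV-GFP list, so its length is unchanged, and no ratio over the whole lists was read at this setting.

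Of the 41 AAV-GFP regions, 39 overlapped an AAV-Cre region (95.1%, Wilson 95% interval 83.9 to 98.7), where 86.4% of all AAV-GFP regions did. Of the 87 AAV-Cre regions, 16 overlapped an AAV-GFP region (18.4%, 11.6 to 27.8), where 24.2% of all AAV-Cre regions did. These intervals cover counting error only, and regions of 1 locus are not independent. In bases, 98.6% of the AAV-GFP sequence at the 9 genes lay in AAV-Cre regions and 24.0% of the AAV-Cre sequence lay in AAV-GFP regions. Regions at the 9 genes had a median width of 726 bp for AAV-Cre and 311 bp for AAV-GFP, against 753 and 231 bp in the whole lists, whose narrowest regions were 300 and 120 bp. In AAV-Cre, 11 regions (12.6%) were among the strongest 10% of their list by p-value, and in AAV-GFP 14 (34.1%) were.

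**Figure D3:**
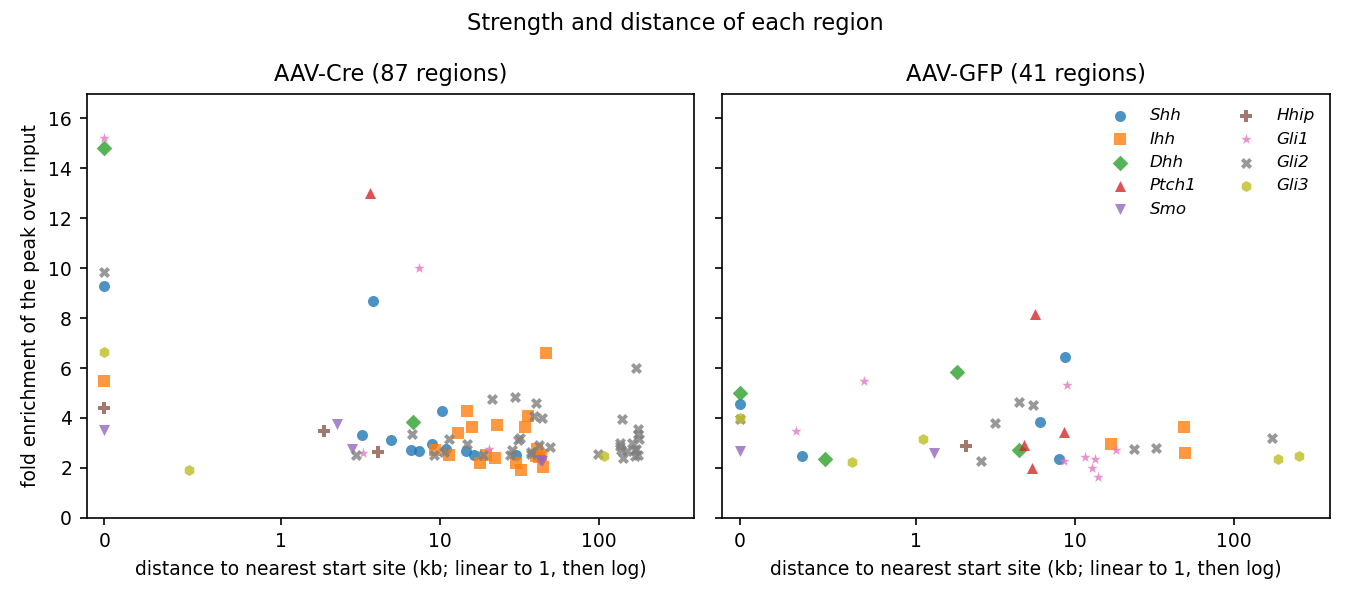
Fold enrichment over input of each of the 87 AAV-Cre and 41 AAV-GFP regions against its distance to the nearest start site in kb, linear up to 1 and logarithmic beyond, with a symbol per gene. The AAV-Cre regions with the highest folds are those over the start sites of Gli1 (15.2) and Dhh (14.8) and that of Ptch1 (13), and beyond 10 kb all lie below 5 apart from 1 at Ihh (6.61) and 1 at Gli2 (6.0). Folds are read within a list only.

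Among AAV-Cre regions, 8 covered a start site, 7 others touched an exon, 22 were intronic, 27 lay upstream and 23 downstream. Among AAV-GFP regions the numbers were 5, 10, 13, 6 and 7. Gli2 held 18 of the 27 upstream AAV-Cre regions and Ihh 19 of the 23 downstream ones. Within 15 kb of a start site lay 36 of the 87 AAV-Cre and 32 of the 41 AAV-GFP regions. Of the 51 AAV-Cre regions farther away, 30 were at Gli2 and 15 at Ihh, and without these genes 24 of 30 AAV-Cre regions and 27 of 30 AAV-GFP regions lay within 15 kb. Another protein-coding gene had a closer start site for 23 AAV-Cre regions (19 at Ihh, 2 at Smo and 2 at Gli1) and for 9 AAV-GFP regions (3 at Ihh and 6 at Gli1).

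Set among all protein-coding genes, the members had more covered sequence near their start sites than most. Their median within 15 kb was 5248 bp in AAV-Cre and 3638 bp in AAV-GFP, where the median of all genes was 0 bp in both and the upper quartile was 2413 and 172 bp. In AAV-Cre, Shh stood highest, with 1.92% of genes having more covered bp, followed by Gli2 (3.6%), Gli1 (3.75%) and Dhh (9.13%), and Gli3 stood lowest at 21%. In AAV-GFP the order was Gli1 (2.13%), Gli2 (2.8%), Shh (2.92%), Dhh (3.13%), Ptch1 (4.74%), Gli3 (9.45%), Smo (18.7%) and Hhip (26.6%), with Ihh at 0 bp. The 4 highest genes were the same in both lists. The first place of Gli1 in AAV-GFP counted regions of high q-value, among them part of that of 3116 bp with q of 0.89. The order among regions at a q-value of 0.05 or lower was not read. Without replicates, no spread is available to say which neighbours in these orders differ.

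**Figure D4:**
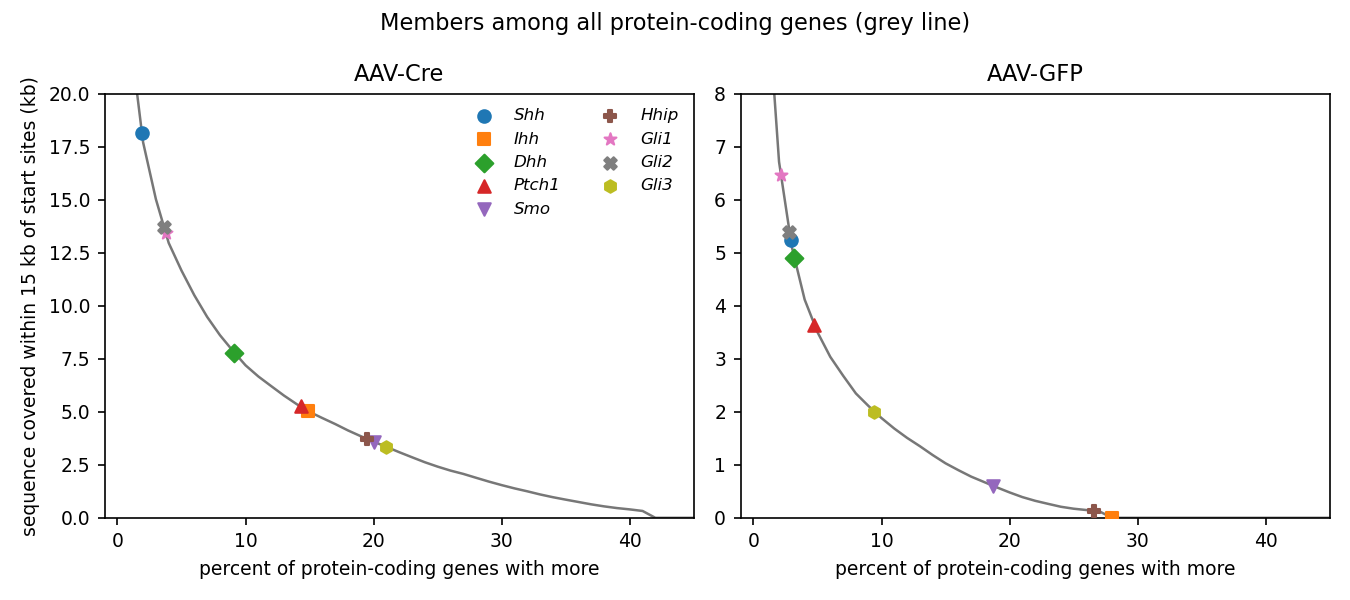
Sequence covered by regions within 15 kb of start sites, in kb, against the percent of all 21851 protein-coding genes with more, for AAV-Cre on the left and AAV-GFP on the right. The grey line is all genes and leaves the plot at the top, and the symbols are the 9 members. Shh, Gli2, Gli1 and Dhh stand at the upper end in both panels, and Ihh is at 0 in AAV-GFP. The vertical axes differ in scale.

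The promoters of 7 members were matched in the RefSeq table for GRCm38.p6, each with 250 bases before and 50 after the start, and Shh and Gli1 were without an entry. Their CpG observed-to-expected ratio had a median of 0.774 and their GC content a median of 71.0%, against 0.384 and 52.7% over 32851 promoters. The ratio ranged from 0.438 in Dhh and 0.504 in Smo through 0.747 in Hhip, 0.774 in Ihh and 0.83 in Gli2 to 1.09 in Ptch1 and 1.12 in Gli3. All but Ptch1 were covered over all 300 bases in AAV-Cre. In AAV-GFP the promoters of Dhh, Gli2 and Gli3 were covered over 300 bases, that of Smo over 207, and those of Ihh, Ptch1 and Hhip over 0. The 2 promoters with the highest CpG ratio thus stood at opposite ends of coverage. The GLI binding sequence GACCACCCA, searched on both strands, occurred in 0 of the 7 and in 0.253% of all promoters, and its core CCACCCA, which the longer sequence contains, in 0 of the 7 and in 9.3% of all.

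The remaining genes of the pathway were described from a list of 44, of which 36 were marked within 15 kb in AAV-Cre (81.8%), 29 in AAV-GFP (65.9%), 7 in AAV-Cre only and 0 in AAV-GFP only. Over all genes the shares were 41.6%, 28%, 14.8% and 1.21%. At a q-value of 0.05 or lower, 33 were marked in AAV-Cre, without Btrc, Arrb2 and Foxa2, and 26 in AAV-GFP, without Cdon, Ift88 and Bcl2. Of all genes, 40.5% and 21.5% were marked at this setting. Of the 7 genes for processing and release of the ligands, all were marked in AAV-Cre and 5 in AAV-GFP. Scube3, a secreted protein that helps ligand release, had 16255 covered bp in AAV-Cre and 3920 bp in AAV-GFP, whereas Disp1, the transporter that releases the ligand, had 3056 and 0 bp, and Hhat, which attaches palmitate to it, had 649 and 0 bp. Of 5 co-receptors and ligand-binding proteins, 5 were marked in AAV-Cre and 4 in AAV-GFP. Cdon, a co-receptor, had 6042 and 1047 bp, and Gas1, which also binds the ligand, had 532 and 0 bp.

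Of the 17 genes of the cytoplasmic and ciliary steps, 9 were marked in AAV-Cre (52.9%) and 6 in AAV-GFP (35.3%). These shares were nearer to those of all genes, 41.6% and 28%, than the shares of the whole list of 44. Kif7, the ciliary kinesin of the pathway, had 11280 and 3251 covered bp, and the receptor Gpr161 had 7772 and 2976 bp. Evc and Evc2 share a region at adjoining start sites, of 3726 bp with a fold of 9.31 in AAV-Cre, which counts for both genes. The negative regulator Sufu, the kinase genes Gsk3b, Prkaca and Stk36, the ligase adaptor Spop, and Kif3a, Iqce and Efcab7 had no region within 15 kb in either list. Csnk1a1, Arrb2 and Btrc were marked in AAV-Cre only, with 810, 473 and 388 bp, none at a start site, and the single regions at Arrb2 and Btrc had q-values of 0.057 and 0.14.

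AAV-Cre regions marked all 15 genes known as GLI targets in other tissues, against 41.6% of all genes. AAV-GFP regions marked 14 of them, all but Foxa2, against 28% of all genes. Foxa2, a transcription factor of liver and gut development, had 1537 bp in AAV-Cre and 0 in AAV-GFP, with its nearest AAV-Cre region 5832 bp from the start site. The transcription factor genes Foxf1 (23813 and 13721 bp), Nkx2-2 (23050 and 12929 bp), Foxf2 (21784 and 14596 bp) and Foxl1 (19865 and 14343 bp) had the most covered sequence of the list in AAV-Cre. The region at Foxl1 also covered the start site of its neighbour Foxc2. These genes are themselves developmental regulators, and the list was drawn up with earlier results of these data known.

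**Figure D5:**
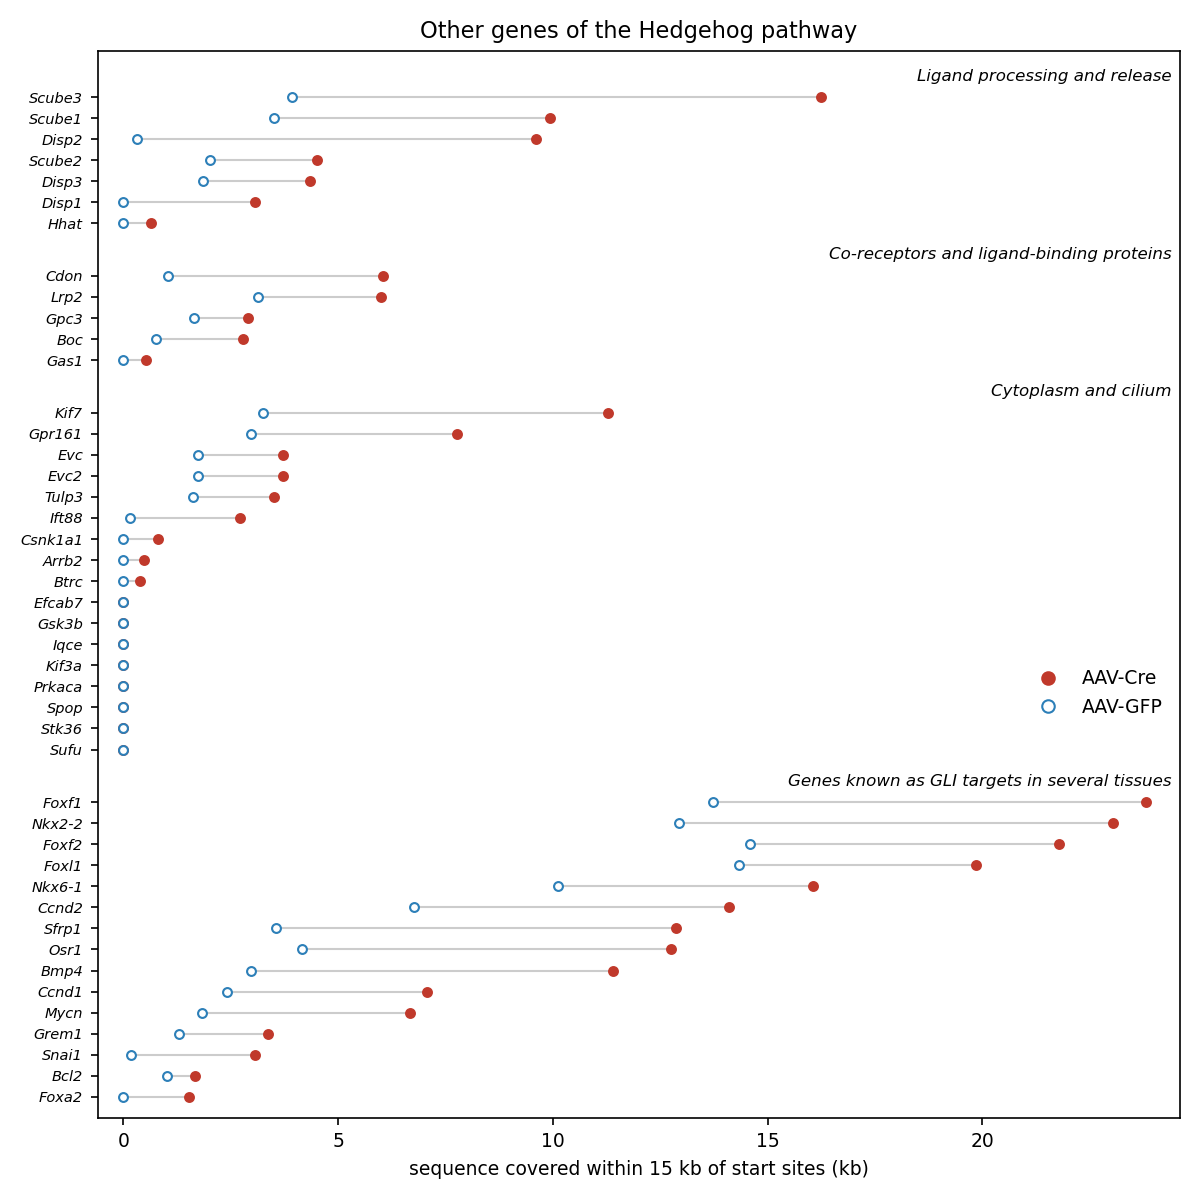
Sequence covered within 15 kb of start sites, in kb, for the 44 other genes of the pathway, with AAV-Cre as filled red points, AAV-GFP as open blue points and genes ordered by AAV-Cre within each step of the pathway. The GLI targets reach furthest, up to 23813 bp at Foxf1, while 8 genes of the cytoplasm and cilium stand at 0 in both lists.

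The marker genes of liver cell types were read in the same window. Of 9 hepatocyte genes found, such as Alb and Apoa1, 0 had a region in either list. Of 6 cholangiocyte genes, 6 were marked in AAV-Cre and 4 in AAV-GFP, of 6 stellate cell genes 4 and 5, of 6 Kupffer cell genes 3 and 0, and of 6 endothelial genes 4 and 3. Over all protein-coding genes the shares were 41.6% in AAV-Cre and 28% in AAV-GFP. Some calls were weak. The stellate cell gene Dcn, marked in AAV-GFP only, had 129 covered bp, and the AAV-Cre region at the Kupffer cell gene Clec4f had a q-value of 0.057. In whole liver, a change of the mark within hepatocytes and a change in the make-up of cells cannot be told apart.

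For each member, the gene whose covered bases within 50 kb of the start site, read along the direction of transcription over both lists, overlapped most was sought among 21850 genes by the Jaccard index (shared over united bases). The likeness was highest for Gli3 with A930017K11Rik (0.8), Dhh with Pdgfb (0.731) and Hhip with Cmtm7 (0.672). It was lower for Smo with Dgki (0.634), Ptch1 with Erich1 (0.63), Gli1 with Lhx9 (0.565), Shh with Gsx2 (0.518), Gli2 with Nkpd1 (0.496) and Ihh with Traf1 (0.368). No member was the closest match of another.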

How the data were processed

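H3K27-me3 and input libraries were made by the authors from livers of JMJD3-floxed mice given AAV-TBG-Cre or AAV-GFP, with 2 of each kind per virus. Groups were taken from the labels. The authors used the AQUAS histone pipeline on mm10 with a pooled input, mapping with bwa 0.7.13 and filtering with Samtools 1.2 and Picard 1.126, versions that the submitters' processing notes also name. MACS called the peaks, and those overlapping across replicates were kept, which gave 1 list per group from both libraries. Narrow peaks split broad domains into several regions. The deposited lists give a fold (ratio) over input, the −log10 of p and of q, a summit offset and a display score, as written by the authors' peak caller. Summit and score were not used. Depth is unknown.

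Regions were placed on GENCODE M21 genes of GRCm38, the assembly of mm10, with start sites of basic protein-coding transcripts. A gene was called marked with a region within 15 kb, the window of the study, and regions were called shared with at least 1 bp in common. Whether JMJD3 was lost cannot be read from peak lists. No test between groups was made, as there is 1 list per group. Shares have Wilson 95% intervals. The members and gene lists were chosen with earlier results of these data known. Genes named are the 9 members, the nearest other gene of a region, listed pathway genes marked in 1 list only or with the most covered bases, and for each member the gene of highest Jaccard index over 200 kb away. Other pathway genes and the markers named were added as examples after their values were seen. A gene of the pathway list is not reported here. A hepatocyte marker whose symbol had no match was left out, so 9 of 10 were read. Alternatives were q-values of 0.05 and 0.01, equal numbers of top peaks, a width of at least 300 bp, windows of 1, 5 and 50 kb, other start sites, a smaller locus, merging within 1 or 5 kb and other overlaps. The interval functions were tested on simulated data over 21851 genes and gave the known answer in 100% of cases. Python 3.11.15, numpy 2.4.6 and scipy 1.17.1 were used.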

Additional observations from a re-analysis of the deposited data

How the results depend on the processing

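Leaving out a replicate was not possible, since each list pools both libraries of its group. No paired analysis was possible because the lists hold no value per library. Of 112 alternative values for the main counts and lengths, 88 stayed within 1.5 times the reported value or within its interval. Some of them could not move. The equal number of top peaks, 34586, is the whole AAV-GFP list, and no AAV-Cre region is narrower than 300 bp. Counts and lengths read from that list alone are fixed at these settings, and the 88 include them. AAV-Cre was at least as high as AAV-GFP in members marked in 10 of 10 settings. The same held for the covered bases of the members together in 6 of 6 and for the number of regions in 8 of 8. AAV-Cre was at least as high as AAV-GFP in covered bases in 54 of 54 combinations of member and setting. Ties count here, and members marked were 9 in both lists in a window of 50 kb. The whole AAV-Cre list covered 4.93 times the sequence of the AAV-GFP list. Such counts were not read for other genes, so they do not set the members apart. Ihh was the only member marked in AAV-Cre alone (1). This count was 2, with Hhip added, at q-values of 0.01 or lower and at a width of at least 300 bp, where the share of all genes was not read. It was 2 in a window of 1 kb and 0 in a window of 50 kb, against 7.63% and 17.2% of all genes. The background moved with the window: 5236 genes were marked in AAV-Cre at 1 kb, where 9087 were at 15 kb, and in AAV-GFP 3632 at 1 kb and 10176 at 50 kb, where 6114 were at 15 kb. The 87 AAV-Cre regions became 52 with the same number of top peaks, 54 over the gene body and 15 kb, 40 merged within 1 kb and 20 merged within 5 kb. The 41 AAV-GFP regions became 27 at a q-value of 0.05, 23 at 0.01, 21 at a width of at least 300 bp, 21 merged within 1 kb and 17 merged within 5 kb. The shared share of AAV-Cre regions (18.4%) was 28.8% with the same number of top peaks, 37.5% and 55.0% after merging within 1 and 5 kb, 8.05% when 0.5 of the region had to be covered and 28.7% within 1 kb. That of AAV-GFP regions (95.1%) was 100% at both q-values and at the minimum width. The shares over the whole lists, 24.2% and 86.4%, were not read at these settings. The smaller locus took Ihh to 5031 bp and Gli2 to 28995 bp in AAV-Cre. At q-values of 0.05 and 0.01, Gli1 had 4652 and 4532 bp in AAV-GFP. Other causes of these shifts were not tested.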
